A study of Drosophila melanogaster with 4 samples.

Results

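The regions described are the H3K4me2-enriched domains on the left arm of chromosome 2 (2L) of Drosophila melanogaster, outside the 2 Mb next to the centromere. They were taken from the authors' combined list of enriched regions by position alone, and number 878 of the 5383 regions in that list and of the 932 on the whole arm. The samples were wild-type Oregon-R embryos aged 14 to 16 h, with 2 ChIP libraries (H3K4me2 antibody) and 2 input libraries made without antibody. All 4 libraries share the strain, genotype and stage, so there is no treated group. Each ChIP replicate has its own list, with 805 and 801 regions in the same part of the arm. No label gives the source of each replicate (1 embryo collection or several), so their spread may be technical, and the read depth behind the lists is unknown.

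H3K4me2 is histone H3 dimethylated at lysine 4, a mark laid down by the Set1 and Trithorax family of methyltransferases. It is found around the promoters of active genes, usually flanking the trimethylated nucleosomes at the start site, and at enhancers, including those of genes that are poised rather than transcribed. In late embryos, when nervous system, muscle and epidermis differentiate, a whole-embryo list adds up these cell types. A high score may come from many cells with the mark or from much of it in a few, and the lists cannot tell these apart. Positions are those of FlyBase release 5, and no gene annotation or genome of that release was used, so the regions are named by position and no sequence is shown.

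The domains of 2L were mostly a few kb wide, and the narrow ones had low scores. The median width was 3026.5 bp in the combined list, and the replicates gave 3050 and 2968 bp (3009 ± 58.0 bp, SD, n = 2). Widths ran from 1001 bp to 18765 bp, and the 36 regions over 8 kb held 12.0% of the covered sequence. The largest class by number, the 311 regions of 2000 to 3000 bp, held 24.4% of it. The score is the authors' own value for each region, on a scale not given in the sources used here. Its median in the combined list was 0.35 in the 32 regions under 1300 bp, and rose from 0.30 in regions of 1300 to 2000 bp to 1.16 at 2000 to 3000 bp, 1.72 at 3000 to 4000 bp and 2.08 at 4000 to 6000 bp. Above that width it changed little, with 2.12 at 6000 to 8000 bp and 2.27 over 8 kb. Across regions, which are not independent replicates, Spearman's rho of width and score was 0.72 in the combined list, 0.69 in replicate 1 and 0.68 in replicate 2. Width and score come from the same reads and the same caller.

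The scores had a lower and an upper maximum in each list, and whether these mark separate groups of regions was not tested. In the combined list 135 regions scored between 0.25 and 0.5, only 57 scored between 0.75 and 1, and a broad maximum followed, with 107 regions between 1.75 and 2. Replicate 1 had its lower maximum between 0.5 and 0.75, with 82 regions, and its upper between 2 and 2.25, with 106. Replicate 2 had 99 and 125 regions in the same classes, with a shallow dip to 65 regions between 0.75 and 1. Recurrence differed with the score. Among all 878, 758 overlapped a region of both replicate lists by at least 1 bp (86.3%, Wilson 95% interval 83.9 to 88.4, counting error only), against 88.5% of the combined list over all sequences. All 574 regions of score 1 or more recurred in both (100%, interval 99.3 to 100), as did 131 of the 134 scoring 0.5 to 1. Below 0.5, 53 of 170 did (31.2%, interval 24.7 to 38.5). The combined list pools the same ChIP replicates, in a way that is not stated. Overlap of its strong regions with the replicate lists is therefore partly built in and is no independent check.

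**Figure D1:**
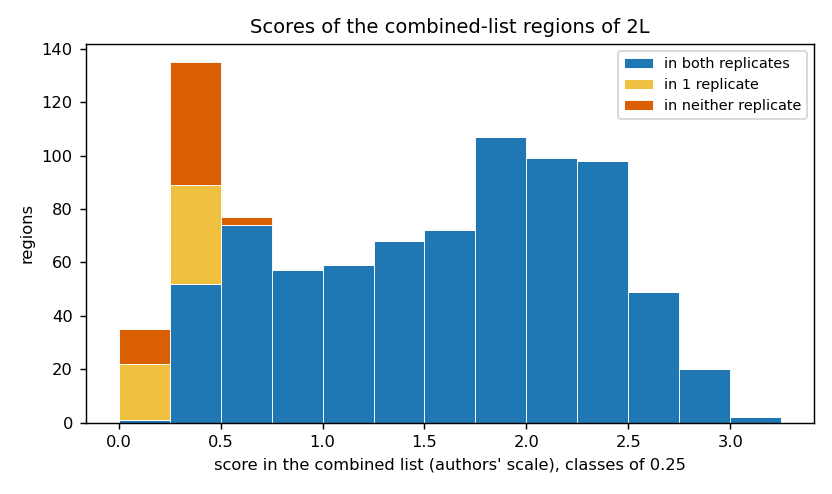
Number of combined-list regions of 2L (vertical axis) by score on the authors' scale (horizontal axis, classes of 0.25), coloured by overlap with the replicate lists. Regions absent from 1 or both replicates lie below 0.75, and those of score 1 or more are all in both.

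The regions that did not recur were narrow and weak. Of the 120 outside the shared set, 39 were in replicate 1 only, 19 in replicate 2 only and 62 in neither. Their median scores were 0.32, 0.30 and 0.32, against 1.74 for shared regions, and their median widths 1719, 1794 and 1285.5 bp, against 3317 bp. The 62 in neither replicate took up 2.63% of the covered sequence, and 32 of them were narrower than any replicate region of the arm. The narrowest region was 1001 bp in the combined list, but 1319 bp in replicate 1 and 1306 bp in replicate 2. Whether the lists had different lower limits of width is unknown, so the absence of these 32 cannot be told apart from such a limit. The strongest of all 62 lay at 10479870 to 10480957 (1088 bp, score 0.66), 9551707 to 9552770 (1064 bp, 0.62) and 19464728 to 19466341 (1614 bp, 0.58). The region nearest to the boundary, 20967386 to 20968388 (1003 bp, score 0.43), was also in neither. The first region left out beyond it, 21049317 to 21054372, scored 1.39 in the combined list, 1.55 in replicate 1 and 1.62 in replicate 2.

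Spacing along the arm was uneven, with many close neighbours and a few very long gaps. The median gap between neighbours, measured from the end of one region to the start of the next, was 6318 bp in the combined list, 6693.5 bp in replicate 1 and 6674.5 bp in replicate 2. At the other end, 101 of the 877 gaps exceeded 50 kb, and these 11.5% of gaps took up 48.6% of the arm's length. In replicate 1, 104 gaps over 50 kb took up 51.0%, and in replicate 2, 106 took up 52.8%. At the short end, 128 gaps were under 1 kb and joined 234 regions (26.7%) into 106 runs. Most runs were pairs (89), 13 had 3 regions and 4 had more.

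Regions with a close neighbour scored higher than isolated ones. With the nearest region under 1 kb away, the median score was 1.83 in the combined list, 2.14 in replicate 1 and 1.87 in replicate 2. It was 1.49, 1.86 and 1.63 at 1 to 10 kb, and 1.03, 1.37 and 1.19 at 10 to 50 kb. For the 26 regions of the combined list with no neighbour within 50 kb it was 0.91, and for the 27 of each replicate 0.92 and 0.94. The order was the same in all 3 lists, while the interquartile ranges of neighbouring classes overlapped. Width followed the distance less closely, with medians of 3238, 2993, 2837.5 and 3139.5 bp in the combined list. Of the 26 isolated regions, 23 were in both replicates.

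**Figure D2:**
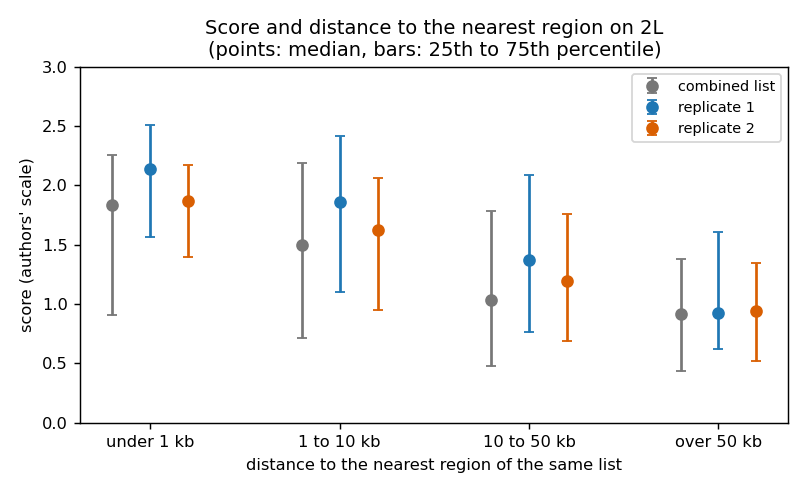
Score on the authors' scale (vertical axis) by distance to the nearest region of the same list (horizontal axis), for the combined list and each replicate on 2L. Points are medians and bars the 25th to 75th percentile of regions; the medians fall from 1.83, 2.14 and 1.87 under 1 kb to 0.91, 0.92 and 0.94 over 50 kb.

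The scores of close neighbours differed by a median of 0.61 over the 128 pairs under 1 kb apart, and by 0.77 over the 357 pairs of consecutive regions more than 10 kb apart. In 53 of the close pairs the weaker partner scored below 1, and in 13 both did. Of the 4 runs with more than 3 regions, the 3 with the most regions are described, the longer span being taken where numbers were equal. The run from 10371442 to 10392102 had 5 regions, scoring 0.43, 1.88, 1.80, 0.21 and 1.82, and was called as 5 regions in replicate 1 and 3 in replicate 2. The run from 6461012 to 6482800 scored 0.29, 1.28, 0.36 and 1.79 in the combined list. Both of its weak regions were in neither replicate, and each of the others was divided into 2 regions in both replicates. The run from 13364160 to 13384537, in contrast, was strong throughout, with 2.47, 2.57, 2.49 and 2.34 and 4 regions in each replicate.

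The stretch between 13 and 19 Mb was sparse in number of domains. It was picked out because earlier results of these lists showed it, so its values are a description and carry no test. It held 181 regions in 6 Mb, or 30.2 per Mb, against 46.4 per Mb over the other 15.0 Mb. Replicate 1 had 28.0 against 42.4 per Mb and replicate 2 had 27.5 against 42.4, a ratio of 0.66 and 0.65. Replicate 1 had 9.72% of this sequence covered and replicate 2 had 9.27% (9.49% ± 0.32, SD, n = 2), against 16.1% and 15.6% elsewhere (15.9% ± 0.38). The difference was -6.43 and -6.35 percentage points, with an SD of 0.056 points between the lists (n = 2). What share of the stretch reads could be aligned to is unknown, and its part in the difference was not tested.

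The stretch had longer gaps from the 25th percentile upward, but about the same share of gaps under 1 kb. Gaps under 1 kb made up 14.4% of gaps inside and 14.6% outside in the combined list, 14.4% and 12.7% in replicate 1, and 14.0% and 13.2% in replicate 2. Gaps over 50 kb made up 18.9% against 9.61%, with 20.4% against 11.0% in replicate 1 and 20.1% against 11.5% in replicate 2. These long gaps filled 63.4% of the stretch and 42.7% of the rest in the combined list. The median gap was 9367 bp inside and 5771 bp outside, 1.62 times as long, and 1.76 and 1.63 times in the replicates. The 25th percentile was 3152.5 bp inside and 1913 bp outside, and the 75th was 35692.5 and 19844 bp. Among the upper 50% of scores this ratio was 0.95, although such regions were fewer per Mb inside by a ratio of 0.59. Regions with a neighbour within 1 kb made up 26.0% of those inside and 26.8% of those outside, whereas 44.2% against 56.2% had the nearest at 1 to 10 kb, 23.8% against 14.8% at 10 to 50 kb and 6.08% against 2.15% at over 50 kb.

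**Figure D3:**
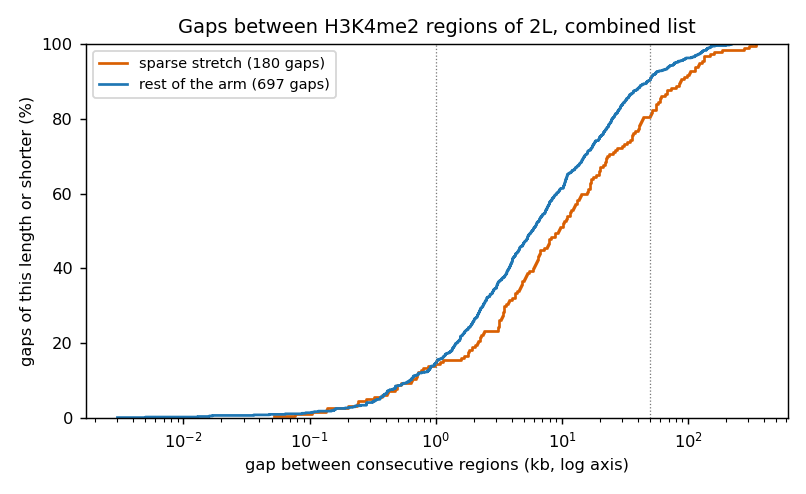
Cumulative share of gaps (vertical axis, %) by gap length between consecutive combined-list regions of 2L (horizontal axis, kb, log scale), for the 180 gaps of the sparse stretch and the 697 of the rest. The curves coincide up to 1 kb (left dotted line) and part above it, with 18.9% and 9.61% of gaps over 50 kb (right dotted line).

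The domains inside the stretch were slightly narrower and lower in score than those outside. The median width inside was 2933 bp (replicate 1) and 2817 bp (replicate 2), and outside it was 3105 and 3009 bp, a difference of -172 and -192 bp. The median score was 1.71 and 1.55, against 1.87 and 1.62, and the difference of -0.17 and -0.071 varied between replicates with an SD of 0.067. Among the upper 50% of scores both differences changed sign in the combined list, to 38 bp and 0.026. With the stretch narrowed by 0.5 Mb at each end, which leaves out part of the high-scoring window from 13 to 14 Mb, they were -320 bp and -0.35, against -210 bp and -0.15. Very wide domains were few, with 4 of 181 over 8 kb inside against 32 of 697 outside. Inside the stretch, 157 of 181 (86.7%, Wilson 95% interval 81.0 to 90.9) were in both replicates, and outside it 601 of 697 (86.2%, interval 83.5 to 88.6).

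The stretch was not sparse throughout. In windows of 1 Mb, that from 14 to 15 Mb was covered to 4.71% ± 0.14 (SD, n = 2), that from 17 to 18 Mb to 5.00% ± 0.45 and that from 15 to 16 Mb to 7.36% ± 0.28. These 3 lay below all 15 windows outside the stretch in both replicates, where the lowest was 10.6% and the median 14.6%. The other windows of the stretch, including those at both of its ends, lay within the range of the outside windows but below their median. They had 14.5% ± 0.23 from 13 to 14 Mb, 12.2% ± 0.24 from 16 to 17 Mb and 13.2% ± 0.58 from 18 to 19 Mb. The densest window of the arm, from 10 to 11 Mb, reached 25.1% ± 0.74 and held 65 regions, against 18 from 14 to 15 Mb and 17 from 17 to 18 Mb.

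The 3 windows of lowest covered share also had low median scores. The windows from 14 to 15, 15 to 16 and 17 to 18 Mb had combined-list median scores of 0.86, 1.13 and 1.04, below the 18 other windows of the arm, the lowest of which had 1.23. In replicate 1 they had 1.27, 1.39 and 1.26 and again lay below all others, and in replicate 2 1.14, 1.39 and 1.09, with the window from 15 to 16 Mb above some others. The window from 13 to 14 Mb had the highest median score of the arm in each list, 2.06 in the combined list, 2.29 in replicate 1 and 2.01 in replicate 2. The next window toward the centromere had the lowest covered share of the arm.

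**Figure D4:**
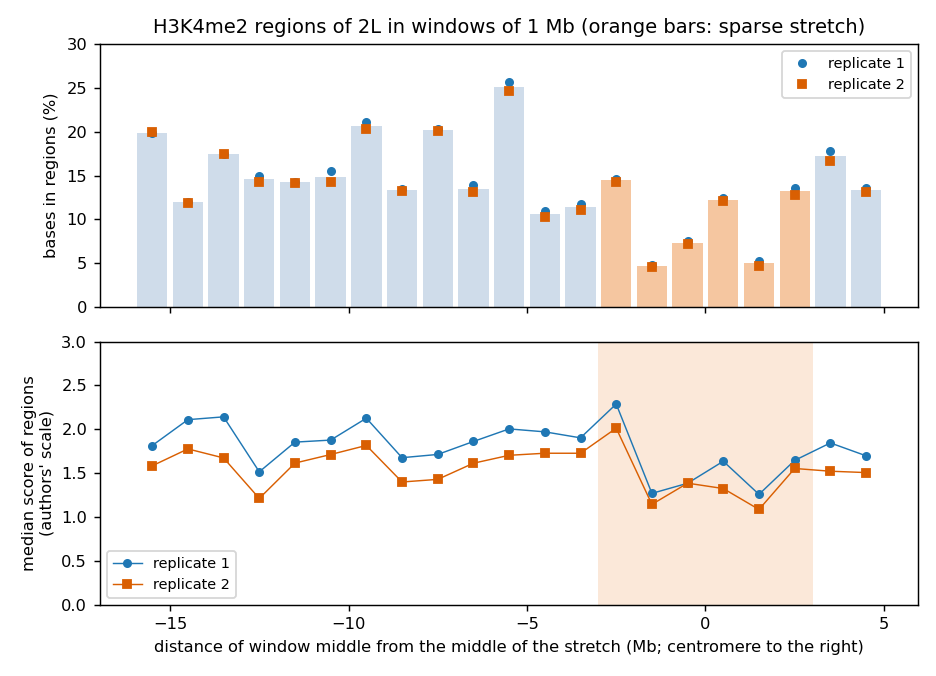
Upper panel, share of bases in regions (%) in the 21 windows of 1 Mb of 2L, with bars for the mean and points for each replicate; lower panel, median score of the regions in each window on the authors' scale. The horizontal axis is the distance in Mb from the middle of the sparse stretch, and the windows centred 1.5 and 0.5 Mb before it and 1.5 Mb after it are the lowest, at 4.71%, 7.36% and 5.00%.

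The 3 longest gaps of the arm were all inside the stretch. Between 16910864 and 17258458 no region was listed over 348 kb, and the gap spanned 356 kb in replicate 1 and 348 kb in replicate 2. The region on its distal side was weak (1794 bp, score 0.22) and found in replicate 2 only. Between 14690002 and 14995690 the gap of 306 kb was the same in both replicates. Between 15771927 and 16050836 the combined list had a gap of 279 kb, but the region that ends it (1007 bp, score 0.41) was in neither replicate. In the replicates this gap was 394 kb long in each and the longest on the arm, so the order of the longest gaps rests on 1 weak region. The next were outside the stretch, 221 kb from 11583867 to 11805009 and 212 kb from 20098126 to 20310505, with lengths within 1 kb of these in both replicates.

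Strong domains nonetheless lay inside the stretch, and the highest scores among them were in its distal part. The highest score there was at 13392537 to 13395954 (3418 bp), 3.11 in replicate 1 and 2.74 in replicate 2, the seventh highest of the arm. It lay proximal to the run of 4 strong regions at 13364160 to 13384537, though not directly beside it. The next were 13163149 to 13168203 (3.04 and 2.74), which followed an empty 102485 bp, and 13218057 to 13224457 (3.07 and 2.65). The widest, 13826185 to 13837473 (11289 bp), scored 2.99 and 2.60 and was a single region in both replicates. On the proximal side of the 306-kb gap, 15004852 to 15011643 scored 2.96 and 2.41, with widths of 6748 and 6744 bp. The other wide regions of the stretch were less evenly called. That at 18701035 to 18710378 was divided into 2 regions in each replicate and that at 16348684 to 16357586 in replicate 2, whereas 16726094 to 16734234 was single in both (2.81 and 2.40). The region at 18319331 to 18327289, with 134197 bp and 114019 bp empty on its sides, scored 1.48 and 1.43, with called widths of 7966 and 5760 bp.

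The 10 widest domains of the arm all lay outside the stretch, which held 181 of the 878 regions. The widest inside it, of 11289 bp, ranked 11 on the arm. The first was 4964807 to 4983571 (18765 bp), with scores of 2.80 and 2.43 (mean 2.62 ± 0.27, SD, n = 2). It was followed by 11986229 to 12003165 (16937 bp, 2.64 ± 0.26), 19569568 to 19586258 (16691 bp, a single region in replicate 1 and 2 regions in replicate 2) and 4450944 to 4466677 (15734 bp, 2.57 ± 0.27). The domain at 8299375 to 8312909 had widths of 13521 and 13402 bp in replicates 1 and 2 and scored 2.49 and 2.19. That at 1154602 to 1168043 was 13256 and 13352 bp wide and scored 2.45 and 2.12. The widths of both domains changed by little between replicates. The domain at 6470110 to 6482800 (12691 bp) was divided in both replicates into a weaker part, scoring 1.33 and 1.02, and a stronger one, 2.22 and 2.08. The last were 10421130 to 10433037 (11849 and 11807 bp, scores 2.61 and 2.16) and 1722178 to 1733853 (11750 and 11161 bp, 2.31 and 1.99).

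Of the 10 highest scores, 2 belonged to consecutive regions. The second highest, 2764046 to 2771728 (3.28 in replicate 1 and 2.83 in replicate 2), and the eighth, 2757668 to 2761734 (3.23 and 2.65), stood 2311 bp apart. Only 479 bp separated the latter from the seventh widest domain, 2744011 to 2757188 (13243 and 12943 bp, 2.29 and 1.87). Together the 3 covered 89.9% of 27718 bp, and each replicate had 3 regions there. This block was chosen after its values were seen. The highest score, at 9965066 to 9969453, was 3.31 in replicate 1 and 3.14 in replicate 2, and the sixth, 9936365 to 9941054, was 3.07 and 2.78. The fourth, 6916118 to 6923887, scored 3.14 and 2.75. The fifth, 6851461 to 6856091, scored 3.18 and 2.69 and was followed by an empty 50161 bp. The third, 566318 to 570230, scored 3.31 and 2.76, and the tenth, 5996011 to 6001968, scored 3.11 and 2.65. All 10 scored higher in replicate 1 and all were single regions in both, with widths that differed by at most 258 bp between replicates.

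Between the replicates, scores on 2L differed by a shift that grew with the score. Over the 727 regions matched one to one in all lists, the median score was 1.91 in replicate 1 and 1.63 in replicate 2, and 662 (91.1%) scored higher in replicate 1. The median difference, replicate 1 minus replicate 2, was 0.08 in the lowest quartile of combined score, 0.23 and 0.31 in the middle ones and 0.37 in the highest. Of the 65 regions that were higher in replicate 2, 58 were in the lowest quartile. The order of regions was closely kept, with a Spearman's rho of 0.98 for scores and 0.97 for widths, given as a description across regions. In 596 of them (82.0%) neither end moved by more than 250 bp between replicates, and the larger of the end differences had a median of 96 bp. The shift was alike inside and outside the stretch, 0.25 and 0.27.

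**Figure D5:**
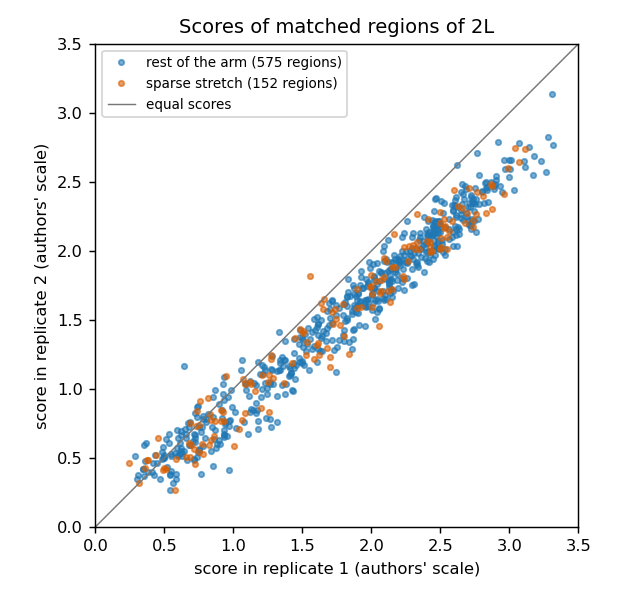
Score in replicate 2 (vertical axis) against score in replicate 1 (horizontal axis), both on the authors' scale, for the 727 matched regions of 2L, with the line of equal scores. Points fall farther below the line as scores rise, 662 of the 727 lie below it, and the 152 regions of the sparse stretch follow the same course as the 575 others.

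The 5 regions farthest from the median shift were all higher in replicate 2. Distance was taken from the median shift of 0.27 over all matched regions, whereas the lowest score quartile had a median shift of 0.08. At 6493061 to 6495322 the score was 0.64 in replicate 1 and 1.17 in replicate 2, with widths of 2061 and 2273 bp. At 16709263 to 16716872, inside the stretch, it was 1.56 and 1.82, and the called width was 6807 and 4585 bp. The other 3, at 11111742 to 11113740, 856754 to 859832 and 7793635 to 7796506, scored at most 0.36 in replicate 1 and between 0.51 and 0.61 in replicate 2. Their called widths also differed, for instance 1330 and 2859 bp at 856754 to 859832.

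Compared with 3L and 3R, each without its 2 Mb next to the centromere, 2L had less of its sequence in domains. The replicates gave 14.3% and 13.8% (14.1% ± 0.36, SD, n = 2), against 15.3% ± 0.25 on 3L and 15.2% ± 0.40 on 3R. Within each replicate, 2L differed from 3L and 3R pooled by -1.20 and -1.24 percentage points (SD 0.029). The rest of 2L without the sparse stretch was covered to 15.9% ± 0.38, but the stretch was chosen for its low values and the other arms were not trimmed in the same way. The median width, averaged over the replicates, was 3009 ± 58.0 bp on 2L, 3126 ± 76.4 bp on 3L and 3144.5 ± 41.7 bp on 3R. Gaps over 50 kb held 51.9% ± 1.28 of 2L, 45.0% ± 0.14 of 3L and 46.2% ± 0.77 of 3R. The SD between 2 replicate lists does not measure how much arms vary. The median gap of 2L was not the longest, with 6684 ± 13.4 bp against 7175 ± 38.9 bp on 3L and 6662 ± 35.7 bp on 3R. Windows of 1 Mb covered to under 8% numbered 3 of 21 on 2L, 1 of 22 on 3L and 0 of 25 on 3R. These counts depend on the limit, since the lowest window of 3R had 8.62% and the next lowest of 3L 9.56%. The low window of 3L, from 10 to 11 Mb (6.00%), had few regions but a median score of 1.92 in the combined list, unlike the 3 on 2L with 0.86, 1.13 and 1.04. Low scores in sparse windows were not confined to 2L, however. The window of 3L from 18 to 19 Mb (9.56%) had a combined-list median score of 0.95. That of 3R from 13 to 14 Mb (9.57%) had 0.80, while the lowest of 3R, from 3 to 4 Mb (8.62%), had 1.41. Of regions scoring under 0.5, 53 of 170 (31.2%) were in both replicates on 2L, 86 of 181 (47.5%) on 3L and 87 of 205 (42.4%) on 3R. At 0.5 or more, 99.6%, 99.8% and 99.7% were in both. These differences between arms rest on 2 replicate lists and were given no p-value.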

How the data were processed

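The ChIP-seq data were 3 lists of enriched regions, namely those of both ChIP replicates and a combined list, on FlyBase release 5 per the file headers. Each region carries a deposited score whose scale is not stated, so scores were used only to describe regions and to compare the lists. The sources used here do not name the aligner, caller, threshold, read depth or way of combining the lists. The input libraries have no list of their own.

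Regions of 2L ending before the last 2 Mb of the arm were taken with Python 3.11.15, numpy 2.4.6, pandas 2.3.3 and scipy 1.17.1. Overlap means at least 1 bp in common. A region was placed in the stretch, a window or the rest by its midpoint, and covered bases were counted exactly. Positions are 1-based. Matched regions overlap exactly 1 region in each replicate and no other. The interval functions were tested on simulated data against a per-base count.

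The members and comparisons were chosen with earlier results of these data known. Regions named are the 10 widest and 10 highest-scoring, the 5 of each kind in the stretch, the 5 longest gaps, the 3 longest runs, the 3 strongest in neither replicate, the 5 farthest from the common replicate shift and the regions at the boundary. The gene table at hand is on release 6, so genes were not assigned. Alternatives were other limits of the stretch, the upper 50% of scores, merging, recurrent regions only and each replicate alone. No p-values were computed.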

Additional observations from a re-analysis of the deposited data

How the results depend on the processing

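The recurrence of the regions, the covered share of 2L against 3L and 3R, and 5 comparisons of the stretch with the rest (covered share, regions per Mb, median gap, width and score) were recomputed under the alternatives; the other values were not. The direction of the covered shares and of regions per Mb was kept in all of them. With each replicate list alone, the covered share of the stretch minus that of the rest was -6.43 to -6.35 points (combined list -6.90), regions per Mb were 0.65 to 0.66 times those of the rest (0.65), the median gap 1.63 to 1.76 times (1.62), the median width -192 to -172 bp (-210), the median score -0.17 to -0.071 (-0.15), and 2L minus 3L and 3R -1.24 to -1.20 points (-1.14). The share of members that overlapped a region of replicate 1, whether or not replicate 2 had it, was 90.8%. For replicate 2, counted in the same way, it was 88.5%.

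Among the upper 50% of scores the median gap ratio (0.95), the width difference (38 bp) and the score difference (0.026) reversed. The other values were -5.10 points, 0.59 times, -0.88 points for 2L against 3L and 3R, and 100% of members in both replicates. With the stretch narrowed by 0.5 Mb at each end, the values were -8.81 points, 0.55 times, a gap ratio of 1.98, -320 bp and -0.35. With it widened by 0.5 Mb at each end they were -6.10 points, 0.69 times, 1.33 and -176 bp. With members in both replicates only, they were -6.54 points, a gap ratio of 1.77 and -1.37 points for the arms. Merging regions less than 500 bp apart left a width difference of -70 bp. The cause of these changes was not tested. Other alternatives moved a value by less than the SD between replicates, including an overlap of at least 50% of the member (86.1%). No paired analysis was possible because the input libraries, which share replicate numbers with the ChIP libraries, have no list here. Depth is unknown, so the absence of weak regions from a list cannot be separated from limited reads. That of the narrowest cannot be separated from a limit on width.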
